A study of Mus musculus with 2 samples.

Results

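Chromosome 12 held 691 of the 7652 peaks that an anti-Nr4a2 ChIP placed on chromosomes 1 to 19, X and Y, out of 7680 peaks in all. The members are all the rows of the authors' peak list with that chromosome name. The chromosome was selected on its peak number in this same list, set against its few coding genes, so its peak number, density and peak values are given as descriptions, without tests. Heights, folds, p and q are the authors' values and serve only to describe, rank or filter peaks within the list. Intervals are 95% intervals and cover counting error only. The study compared 1 library of chromatin precipitated with an antibody against Nr4a2 with 1 library of input DNA, both from BV2 cells. BV2 is an immortalised mouse microglial line. The names in the file header carry the tag H2O2 for both libraries and the labels state no treatment, genotype or time. The design has no replicates, and a peak list holds no expression values against which the identity of the cells could be checked.

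Nr4a2 (Nurr1) is an orphan nuclear receptor that binds DNA as a monomer at the NBRE word, an extended nuclear receptor half-site, as a dimer at paired sites, or together with retinoid X receptors. In the brain it is best known for maintaining dopamine neurons of the midbrain, and in microglia for holding back inflammatory gene expression. Mouse chromosome 12 carries the immunoglobulin heavy chain locus, the imprinted cluster between Dlk1 and Dio3 with its many microRNAs, and very long neuronal genes such as Nrxn3 that are set among wide stretches without coding genes.

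Peaks lay in few of the promoter windows of the chromosome. RefSeq windows of 300 bases (250 before to 50 after a start, build GRCm38.p6) were at hand for 588 of its 678 coding genes. Of the 691 summits, 6 (0.868%, 0.319 to 1.88) fell in such a window, against 0.963% of the 6961 summits on the other chromosomes. Across the 1277 windows of chromosome 12, 10 were touched by 9 peaks. The share of bases in these windows was not computed, so neither a lack nor an excess of peaks at promoters is read from these counts. The 250 bases before the start are shown for the 5 windows in which a peak covered at least 100 of them, with the bases under the peak in capitals.
Clec14a: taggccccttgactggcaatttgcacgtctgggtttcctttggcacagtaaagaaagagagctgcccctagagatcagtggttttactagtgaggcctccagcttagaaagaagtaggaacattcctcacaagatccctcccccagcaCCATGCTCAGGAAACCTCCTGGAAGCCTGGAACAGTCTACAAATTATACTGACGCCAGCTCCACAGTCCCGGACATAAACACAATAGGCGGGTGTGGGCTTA
Fbxo33: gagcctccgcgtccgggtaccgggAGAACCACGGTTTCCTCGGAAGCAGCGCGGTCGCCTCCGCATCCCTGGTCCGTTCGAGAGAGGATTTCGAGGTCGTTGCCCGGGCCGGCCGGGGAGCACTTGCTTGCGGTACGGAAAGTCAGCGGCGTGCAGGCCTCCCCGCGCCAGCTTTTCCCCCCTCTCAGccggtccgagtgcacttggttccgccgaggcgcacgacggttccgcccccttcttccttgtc
Vti1b: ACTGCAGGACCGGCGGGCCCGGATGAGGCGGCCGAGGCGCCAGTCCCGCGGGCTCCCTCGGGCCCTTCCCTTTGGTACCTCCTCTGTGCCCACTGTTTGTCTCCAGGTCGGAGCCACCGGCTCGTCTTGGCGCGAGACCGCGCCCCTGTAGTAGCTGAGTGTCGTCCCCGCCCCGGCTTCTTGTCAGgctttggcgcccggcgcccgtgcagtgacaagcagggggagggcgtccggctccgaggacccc
Cbll1: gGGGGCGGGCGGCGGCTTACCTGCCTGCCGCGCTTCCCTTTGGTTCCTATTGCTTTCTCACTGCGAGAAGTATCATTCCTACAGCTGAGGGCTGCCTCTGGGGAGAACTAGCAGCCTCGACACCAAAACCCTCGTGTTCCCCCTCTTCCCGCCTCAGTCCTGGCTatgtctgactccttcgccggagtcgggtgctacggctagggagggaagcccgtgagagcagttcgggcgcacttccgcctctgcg
Mideas: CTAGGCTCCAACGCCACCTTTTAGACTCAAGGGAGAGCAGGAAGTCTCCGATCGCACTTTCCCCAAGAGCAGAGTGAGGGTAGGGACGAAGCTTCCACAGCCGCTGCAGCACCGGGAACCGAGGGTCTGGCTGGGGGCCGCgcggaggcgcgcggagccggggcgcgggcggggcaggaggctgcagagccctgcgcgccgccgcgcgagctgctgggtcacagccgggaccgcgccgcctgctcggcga
The Clec14a window is at chr12:58269259-58269508, that of Fbxo33 at chr12:59219484-59219733, that of Vti1b at chr12:79172459-79172708, that of Cbll1 at chr12:31499617-31499866 and that of Mideas at chr12:84218882-84219131, all on the minus strand. Peaks covered 102 of the 250 bases at Clec14a, 164 at Fbxo33, 187 at Vti1b, 164 at Cbll1 and 141 at Mideas. The starts of Fbxo33, Vti1b and Cbll1 used here lie inside the gene record. The NBRE word AAAGGTCA, searched on both strands, was in 0 of the 10 touched windows, in 35 of the 1277 windows of chromosome 12 (2.74%) and in 495 of all 32851 windows (1.51%). Of the 35, 13 were windows of 1 non-coding locus, 5430401H09Rik. The shorter half-site AGGTCA, which every NBRE contains, was in 1 of the 10 (Slc25a47), in 18.2% of windows on chromosome 12 and in 16.3% of all windows.

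The window of Fbxo33, which encodes an F-box protein of a ubiquitin ligase, held the strongest of these 5 peaks, with 13 tags over the summit, 5.02-fold enrichment and a −log10 q of 2.69. Fold enrichment is the authors' ratio of ChIP tags to a local background, and q is their adjusted p-value. Vti1b, which encodes a SNARE protein of endosomal fusion, had the tallest peak of the whole chromosome, 18 tags, at a fold of 4.12. Clec14a, an endothelial C-type lectin gene, had 12 tags and 4.67-fold, with its summit 5 bp from the start. The peaks at Cbll1, which encodes the ubiquitin ligase Hakai, and at Mideas, which encodes a scaffold of a histone deacetylase complex, were weaker, at 3.56-fold with 9 tags and 3.23-fold with 11 tags. Both had a −log10 q of 1.08 and so a q above 0.05. At all 5 starts the summit was within 146 bp of the start, upstream of it except at Clec14a.

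Across the 116.98 Mb between the first and the last gene record, chromosome 12 had 5.91 peaks per Mb (5.47 to 6.36), the second highest density after chromosome 15 (6.57) and next to chromosome 19 (5.73). The median over the 19 autosomes was 2.92. It had 5.80 coding genes per Mb, the lowest of the autosomes, whose median was 7.85. Chromosome X was slightly lower at 5.75. Chromosome 12 thus held 9.03% of placed peaks (8.40 to 9.69), 4.40% of the span and 3.11% of coding genes, and its 1.02 peaks per coding gene were the most of any chromosome, before chromosome 15 (0.857) and chromosome 19 (0.474). Chromosome 18, with nearly the same gene density of 5.82 per Mb, had only 1.12 peaks per Mb. Few coding genes per Mb therefore went with both a high and a low peak density.

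**Figure D1:**
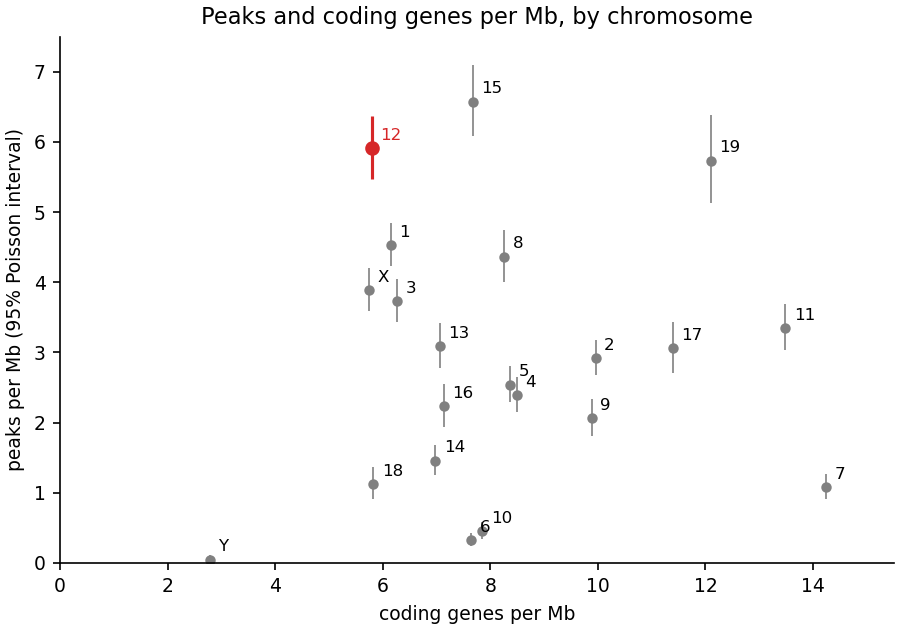
Peaks per Mb (y axis, with 95% Poisson intervals) against coding genes per Mb (x axis) for each of the 21 placed chromosomes, with chromosome 12 in red. Chromosome 12 lies at 5.80 coding genes and 5.91 peaks per Mb, and chromosome 18, at the same left edge of the autosomes, lies at 1.12 peaks per Mb.

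Along the chromosome the peaks thickened from the first annotated Mb to the last. The 29 bins of 1 Mb from 3 to 32 Mb held 74 peaks (2.55 per Mb, 2.0 to 3.2), those from 32 to 61 Mb 145 (5.0 per Mb), those from 61 to 90 Mb 188 (6.48 per Mb), and the 30 bins from 90 to 120 Mb 284 (9.47 per Mb, 8.40 to 10.6). Coding genes followed another order, with 145, 96, 237 and 200 in the same stretches. Over the 24 bins of 5 Mb the rank correlation of peak number with position was 0.853, whereas that of coding genes with position was 0.329. On the other 19 chromosomes (without Y) the correlation with position ranged from -0.433 on chromosome 14 to 0.809 on chromosome 4. Bins of 1 chromosome come from the same library and are not independent, so these are descriptions and carry no p.

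Divided into stretches of even density, the chromosome fell into 3 blocks. The first, from 3 to 28 Mb, held 52 peaks, 2.08 per Mb (1.55 to 2.73), and 5 of its 25 bins were empty. The middle block, from 28 to 69 Mb, held 195 peaks, 4.76 per Mb (4.11 to 5.47). The last, from 69 to 120 Mb, held 444 peaks, 8.71 per Mb (7.91 to 9.55), and its bins held 3 to 17 peaks. Coding genes were 4.68 per Mb in the first block, 3.34 in the middle and 8.31 in the last, so the middle block had more peaks per Mb than the first with fewer genes per Mb. The first border lies between Sox11, a neural transcription factor gene, and Dcdc2c, a doublecortin family gene, and the second between Mdga2, which encodes a synaptic adhesion regulator, and Rps29, a ribosomal protein gene. Peaks spaced themselves accordingly, with a median gap between neighbouring summits of 304 kb in the first block, 151 kb in the middle block and 73.6 kb in the last.

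**Figure D2:**
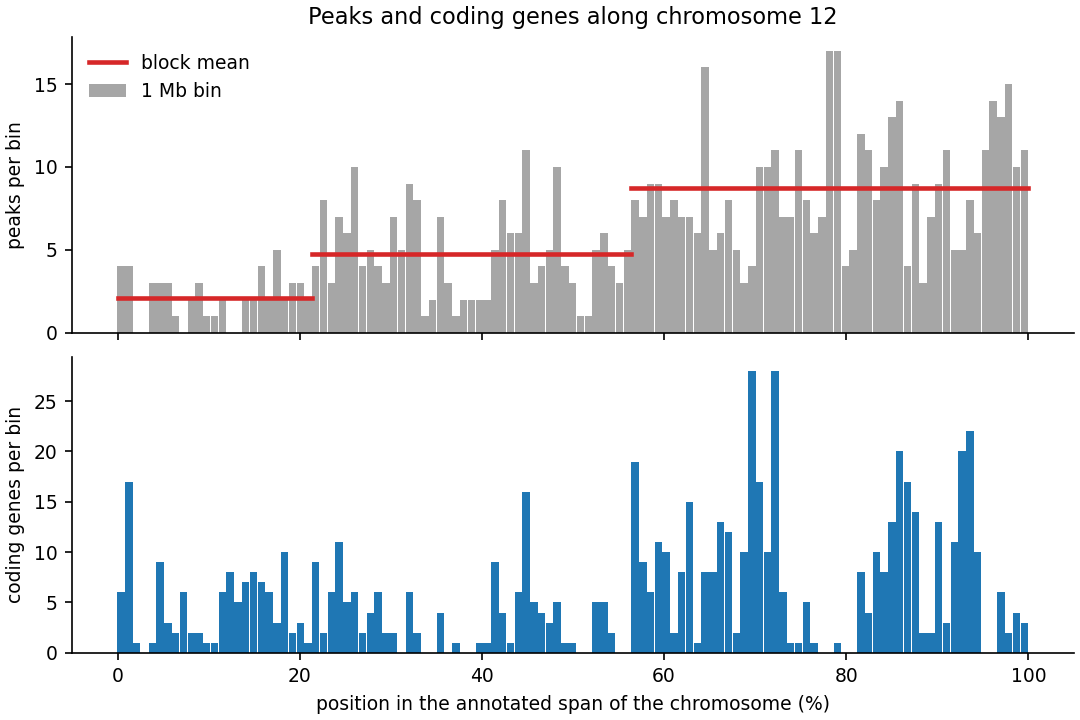
Peaks (upper panel, grey bars, with the mean of each of the 3 blocks in red) and coding genes (lower panel) in bins of 1 Mb along chromosome 12; the x axis is the position in the annotated span in percent. Block means step up from 2.08 to 4.76 and 8.71 peaks per Mb, and the tallest grey bars, 17 peaks each, stand where the lower panel is almost empty.

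These steps were modest. The rises between blocks were 2.29-fold and 1.83-fold, and by the same method the largest step on the other chromosomes with more than 1 block ranged from 1.72-fold on chromosome 15 to 29.2-fold on chromosome 3. Only 1 of the 23 pairs of neighbouring 5 Mb bins differed by 3-fold and at least 10 peaks, namely 15 to 20 Mb with 5 peaks and 20 to 25 Mb with 15. On chromosome 3 it was 5 of 31 pairs. A dip inside the middle block was the next sharpest change, with 27 peaks from 40 to 45 Mb, 10 from 45 to 50 Mb and 27 again from 50 to 55 Mb, and another dip followed with 33 peaks from 55 to 60 Mb, 14 from 60 to 65 Mb and 26 from 65 to 70 Mb. The 2 dips held 2 and 7 coding genes, against 12 and 21 around the first and 33 and 26 around the second. With a penalty of 50% of the one used for a step, the division gave 7 blocks and set these dips apart, with 2.44 peaks per Mb from 42 to 51 Mb and 3.56 from 60 to 69 Mb, and a stretch of 12.3 per Mb beyond 114 Mb.

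The rise along the chromosome was larger among peaks with a raised local background. The authors' background at a peak, recovered from tags and fold, has a genome-wide minimum of 1.786 tags. In the first block 65.4% of peaks stood on that minimum, in the middle block 50.3% and in the last 27.5%. Peaks on the minimum went from 1.36 per Mb (0.942 to 1.90) in the first block to 2.39 (1.94 to 2.91) and 2.39 (1.99 to 2.86) in the others. Peaks above it went from 0.720 per Mb (0.427 to 1.14) to 2.37 (1.92 to 2.89) and 6.31 (5.64 to 7.04). Between the middle and the last block, then, the count per Mb of block rose among peaks above the minimum and was the same among those on it. The blocks were drawn on these same peaks, so the intervals do not test a difference between blocks. The share of each block at the minimum background was not computed, so these are not densities per Mb of such background. Over 5 Mb bins the rank correlation with position was 0.873 for peaks above the minimum and 0.264 for those on it. The part of the input level in the density was not tested. On the whole chromosome 36.8% of peaks (33.2 to 40.5) stood on the minimum, against 50.7% elsewhere, 38.9% on chromosome 15 and 46.4% on chromosome 19.

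**Figure D3:**
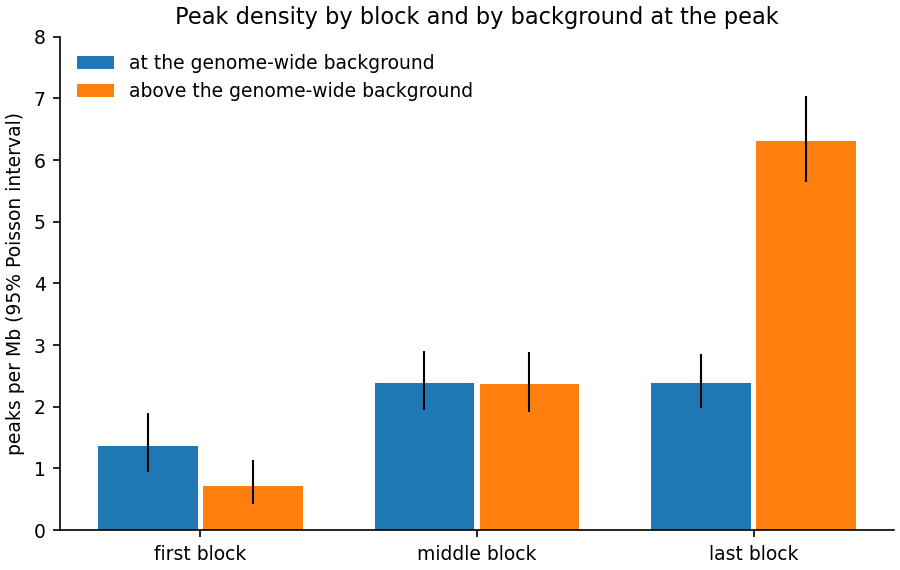
Peaks per Mb (y axis, bars, with 95% Poisson intervals) in the 3 blocks of chromosome 12, for peaks whose local background is at the genome-wide minimum (blue) and above it (orange). Blue bars are equal at 2.39 in the middle and last blocks, while the orange bars rise from 0.720 to 2.37 and 6.31.

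Gene content and peak number went together only loosely. The rank correlation of peaks with coding genes over the 24 bins of 5 Mb was 0.312. That was the third lowest of 20 chromosomes, where the median of the other 19 was 0.486. In 1 Mb bins it was 0.310, and chromosome 12 then ranked 12 of 20 from the highest. With the 5 Mb bins shifted it was 0.441. The 17 bins of 1 Mb without the midpoint of a coding gene held a median of 3 peaks and from 0 to 17. The 25 bins with 10 or more coding genes held a median of 8 and from 2 to 14. From 80 to 85 Mb, 65 coding genes shared 26 peaks, while from 90 to 95 Mb 7 coding genes shared 49 and from 95 to 100 Mb 13 shared 49. Peaks in the gene-rich 80 to 85 Mb bin all stood above the minimum background (0% on it, median background 2.31), against 44.9% on it from 90 to 95 Mb.

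The densest pair of 1 Mb bins held almost no coding genes, while the next densest bin, from 78 to 79 Mb, held 8 beside 16 peaks. From 94 to 95 Mb and from 95 to 96 Mb there were 17 peaks each, with 0 and 1 coding genes. They lie in or at the edge of the widest stretch of the chromosome without a coding gene, 2.80 Mb between Gm40892, a predicted gene, and Flrt2, which encodes a cell adhesion and axon guidance protein. This stretch held 38 peaks, 13.6 per Mb (9.61 to 18.6), with a median fold of 3.95. Of them, 26 had a q of at most 0.05, where 53.7% of all peaks of the chromosome did. Other stretches of nearly that width ranged from 3 to 26 peaks. Between Adam6a and Zfp386, across most of the immunoglobulin variable segments, 2.50 Mb held 26 peaks (10.4 per Mb, 6.79 to 15.2). Between Lrfn5, a synaptic adhesion gene, and Fscb, a sperm protein gene, 2.61 Mb held 4 peaks. Between Klhl29 and Apob, the apolipoprotein B gene, 2.60 Mb held 3. On the far side of Flrt2, the 2.42 Mb to Galc, which encodes a lysosomal galactosylceramidase, held 14 peaks, 5.79 per Mb. All 38 stretches of at least 500 kb together spanned 45.0 Mb and held 189 peaks (4.2 per Mb, 3.62 to 4.85), 27.4% of the chromosome's peaks. The largest gap without any summit was 2.32 Mb near the start of the chromosome, from a summit inside Mfsd2b across Ubxn2a, Atad2b and Klhl29. The next, of 2.23 Mb, reached 17 coding genes, counting Greb1 and Gm40847, which hold the summits at its borders. Among the genes between were Rock2, a protein kinase gene, Odc1, which encodes the first enzyme of polyamine synthesis, and Pdia6, a protein disulfide isomerase gene.

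The immunoglobulin heavy chain locus, which holds the variable, diversity, joining and constant segments of antibody heavy chains, lies in the dense end of the chromosome. Its segments span 2.75 Mb from 113256204 to 116009954 and held 29 peaks, 10.5 per Mb (7.05 to 15.1), with folds from 2.87 to 5.38 and 7 to 15 tags. Of these 29 summits, 0 were inside any of the 215 segment records and 2 were within 1000 bp of the end of one. One of these lay 845 bp from the variable segment Ighv8-2, with 12 tags and 4.23-fold. The share of the locus that the short segment records cover was not computed, so nothing is read from these counts. Variable segments form a multigene family, and how reads of similar copies were placed was not tested. The cluster of Serpina genes, serine protease inhibitors made mainly in liver, had 13 peaks in 0.798 Mb (16.3 per Mb, 8.68 to 27.9). Of these, 1 lay inside a Serpina gene and 1 at an end, 535 bp from Serpina1c, an alpha-1 antitrypsin gene, with 12 tags and 4.13-fold. Here too the share of bases in the genes was not computed.

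The imprinted cluster held too few peaks to tell its density from the 5.91 per Mb of the whole chromosome. Between Dlk1, a Notch ligand family gene, and Dio3, the thyroid hormone deiodinase gene, 0.829 Mb held 3 peaks (3.62 per Mb, 0.747 to 10.6), at folds of 3.59 to 4.25. The peak in Rian, a maternally expressed non-coding RNA, had 9 tags, 3.59-fold and a q above 0.05 (−log10 q 1.08). Meg3, Mirg, Rtl1, Dlk1 and Dio3 had no summit inside or within 1000 bp of an end. Of 92 microRNA hairpins on the chromosome, 3 lay within 1000 bp of a summit. These were Mir667 in the imprinted cluster (620 bp, 3.95-fold, 10 tags), Mir5627 beside Dnajb9 (630 bp, 3.56-fold, 9 tags) and Mir6388 in the immunoglobulin region (471 bp, 3.72-fold, 10 tags). The same share was not computed for hairpins of other chromosomes, so nothing is read from this count. The mature arms of Mir667, the only one of the 61 microRNA genes between Dlk1 and Dio3 with a summit that near, are shown with the seed, bases 2 to 8, in capitals, and their seeds differ.
mmu-miR-667-5p: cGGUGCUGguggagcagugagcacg
mmu-miR-667-3p: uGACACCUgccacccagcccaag

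Peak heights on chromosome 12 were low, with the same median as the rest of the list. The summit pileup, the number of extended ChIP tags, ran from 7 to 18 with a median of 10, and 414 of 691 peaks (59.9%) had 9 to 11 tags. The median fold was 3.61 (3.59 to 3.77), with quartiles of 3.23 and 4.12, a lowest value of 2.35 and a highest of 6.46. Elsewhere the median pileup was also 10 and the median fold 3.59, with quartiles of 3.23 and 4.27. Median width was 192 bp against 189 bp. A q of at most 0.05 was reached by 371 peaks (53.7%, 49.9 to 57.5), against 50.5% of the placed list, a q of at most 0.001 by 20 (2.89%, 1.78 to 4.43), against 2.39%, and a fold of 5 or more by 28 (4.05%, 2.71 to 5.80), against 3.76%. The list chose the chromosome, so nothing is read from these shares.

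No peak of chromosome 12 had more than 18 tags, which allows a share of up to 0.434%, whereas 51 of 6961 peaks elsewhere (0.733%, 0.546 to 0.962) did, up to 328 tags. A tall peak is not always a strongly enriched one, since the local background elsewhere reached 273 tags and the fold went down to 1.20. The highest peaks of chromosomes 6, 7, 13, 14, 16 and 18 also had at most 18 tags, and chromosomes 15 and 19 had 1 peak each above that. Peaks of 14 tags or more were 46 of 691 (6.66%, 4.91 to 8.78) and 5.04% elsewhere. Median folds were 3.59, 3.59 and 3.70 in the first, middle and last blocks, and median pileups 9.5, 10 and 10, so peaks in the dense block were about as high as those in the sparse one. Over the 691 peaks the rank correlation of fold with position was -0.03. Neighbours were seldom close, with 57 of 690 gaps at most 10 kb and 6 at most 1 kb. The closest pair, 312 bp apart, lay nearest to Flrt2, at 3.23-fold and 3.95-fold.

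**Figure D4:**
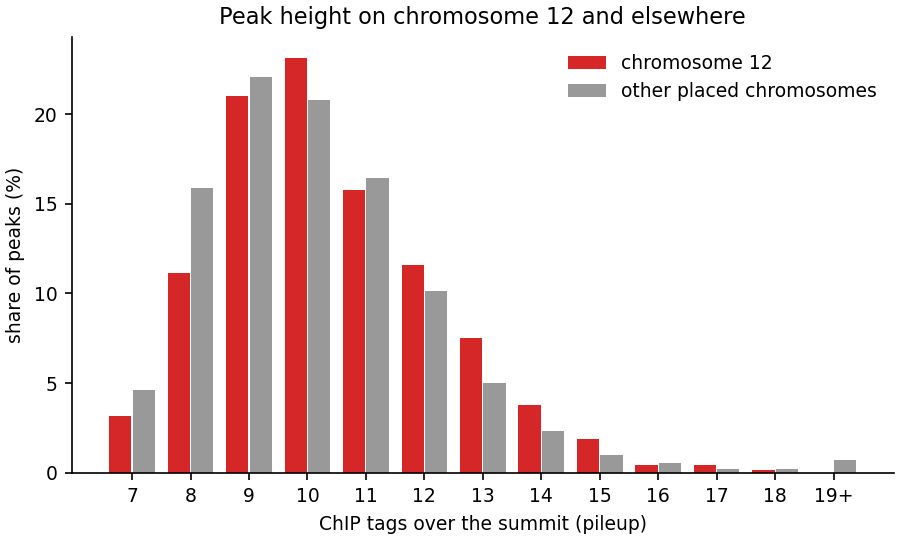
Share of peaks (y axis, in percent) at each summit pileup (x axis, ChIP tags; 19 or more in the last class) on chromosome 12 (red, 691 peaks) and on the other placed chromosomes (grey, 6961 peaks). Both peak at 9 to 10 tags, and chromosome 12 has no peak in the last class.

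The highest folds lay both inside and far from coding genes. The top peak, at 94704070 to 94704260, had 17 tags, 6.46-fold and a −log10 q of 5.46, in the desert before Flrt2 at 988 kb from that gene. Next came a peak of 5.81-fold with 16 tags, 82.5 kb from Dbpht2. A peak inside Tmem196, a membrane protein gene that is the last coding gene of the chromosome, reached 5.74-fold with 15 tags. The peak in Tmem196 is also the last summit of the chromosome. A peak of 5.70-fold and 15 tags lay inside Hdac9, a histone deacetylase gene, and another of the same height 401 kb from Arl4a, a small GTPase gene. Dgkb, which encodes a diacylglycerol kinase of neurons, held a peak of 5.53-fold with 16 tags, and Mpp5, a cell polarity gene, one of 5.46-fold with 15 tags. The next 5 peaks tied at 5.38-fold, and the first 2 of them by position, with 14 tags each, were 245 kb from Cyria and 6.81 kb from Gm3993. Of the first 10 peaks, 4 were inside a coding gene and 0 within 1000 bp of an end, near the shares over all 691 peaks, of which 43.1% were inside and 4.49% at an end.

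Coding gene ends took few summits. Within 1000 bp of either end lay 31 of 691 summits (4.49%, 3.07 to 6.31), against 6.11% (5.55 to 6.69) of summits elsewhere, 5.28% on chromosome 15 and 8.38% on chromosome 19. These windows cover 2.13% of the span of chromosome 12 and 3.0% elsewhere, so summits were 2.1 and 2.03 times as frequent there as their share of bases. Inside coding genes but away from the ends lay 298 summits (43.1%, 39.4 to 46.9), against 41.6% elsewhere, a ratio to the share of bases of 1.25 and 1.12. The remaining 362 (52.4%) lay between coding genes. Of the 31 gene-end peaks, 17 were at the start of a gene, 9 at its far end and 5 at ends of both kinds or without a strand in the RefSeq table, and 1, 9 and 21 of them lay in the first, middle and last blocks. The median distance from a summit to the nearest end of a coding gene was 52.1 kb, and 262 summits (37.9%) were over 100 kb away.

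The 31 peaks touched the ends of 33 of 678 coding genes (4.87%, 3.37 to 6.77), where 2.37% of all coding genes had one. Counting summits inside as well, it was 188 genes (27.7%, 24.4 to 31.3) against 12.6%. The same list chose the chromosome, so nothing is read from these shares. The highest gene-end folds were at Clec14a and at Cep128, a centriole gene, with 12 tags and 4.60-fold at 108 bp from its far end. Hsp90aa1, which encodes the stress-inducible HSP90 alpha chaperone, had a peak near each end. One, of 13 tags and 4.36-fold, lay 878 bp inside the gene, and the other, of 15 tags and 3.89-fold, 154 bp outside it. Both had a q of at most 0.05, with −log10 q of 2.18 and 2.04. Aldoart2, a sperm aldolase gene, had a far-end peak of 4.34-fold, and Slc25a29, a mitochondrial carrier gene for basic amino acids, one of 4.13-fold, both with 13 tags.

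Lower in the order, Immp2l, which encodes a mitochondrial inner membrane peptidase, had 11 tags and 4.10-fold at 638 bp inside its start. Ttc32, a tetratricopeptide repeat gene, had the only gene-end peak of the first block, with 10 tags and 3.95-fold. Aspg, an asparaginase gene, and Eipr1, an endosomal trafficking gene, had far-end peaks of 3.85-fold and 3.76-fold. Catsperb, which encodes an auxiliary subunit of the sperm calcium channel, had a peak at each end, of 3.59-fold and 3.50-fold, both with a q above 0.05 (−log10 q 1.08). Ltbp2, a gene of a latent TGF-beta binding protein, had 3.58-fold with 10 tags at 814 bp outside its start. In all, 14 of the 31 gene-end peaks had a q of at most 0.05, and 0 had a fold of 5 or more. Over all 691 peaks of the chromosome these shares were 53.7% and 4.05%, and nothing is read from the counts. Gene ends here are the ends of the whole gene record. The 5.02-fold peak at the start of Fbxo33 inside its record lies 2.36 kb from an end, so it is not among the 31. The lowest fold on the chromosome, 2.35 with 12 tags, was shared by a peak 47 bp inside the start of Kcnk13, which encodes a potassium channel of microglia, and a peak inside Flvcr2, a membrane transporter gene. The peak at Kcnk13 had a q above 0.05 (−log10 q 0.54). Both genes were named after their values were seen.

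The genes with most summits inside were long ones. Nrxn3, a presynaptic neurexin gene of 1612 kb, held 14, with folds from 2.69 to 4.67, and Ptprn2, which encodes a protein of secretory vesicles, held 12 in 792 kb, from 2.69 to 4.45. Immp2l, Gphn, which encodes the inhibitory synapse scaffold gephyrin, and Dnah11, a ciliary dynein gene, held 8 each in 932, 467 and 321 kb. Akap6, a kinase anchoring gene of muscle and neurons, held 7. Dgkb, Ttll5, Cep128 and Catsperb held 5 each. Per Mb of gene this was 8.68 for Nrxn3, 15.1 for Ptprn2, 8.59 for Immp2l, 17.1 for Gphn and 24.9 for Dnah11, and 6.63 for Dgkb and 15.3 for Akap6. Nrxn3, the longest of them, was therefore as dense in summits as the last block, in which it lies, at 8.71 per Mb. Other long genes held fewer. Hdac9 (870 kb), Npas3 (824 kb), Mdga2 (763 kb) and Slc25a21 (485 kb) held 3, 4, 3 and 1 summits, or 3.45, 4.85, 3.93 and 2.06 per Mb. The middle block, in which they lie, had 4.76 per Mb, and so few summits do not set these genes apart from it. Slc25a21 was named after its value was seen.

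Genes of 200 kb or longer numbered 45, and 40 of them held at least 1 summit, where 181 of all 678 coding genes did. A longer gene has more room for a summit, and length was not accounted for in this count. Together the 45 genes took 140 summits, 20.3% of the chromosome's, on 15.6% of its span. The 5 without one were Klhl29 (298 kb), Dpf3, which encodes a chromatin remodelling subunit (274 kb), the nuclear receptor coactivator gene Ncoa1 (230 kb), Stxbp6 (223 kb) and Ralgapa1 (219 kb). Klhl29 and Ncoa1 lie in the sparse first block. Dpf3 had a peak 451 bp outside its start, at 3.32-fold. Most genes with a summit had few: 122 held 1, 29 held 2 and 30 held 3 or more. Among short genes Atp6v1d, which encodes a subunit of the vacuolar proton pump, stood out after its values were seen, with 4 summits in 19 kb at folds of 3.03 to 3.92 and 8 to 10 tags, of which 1 had a q of at most 0.05.

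**Figure D5:**
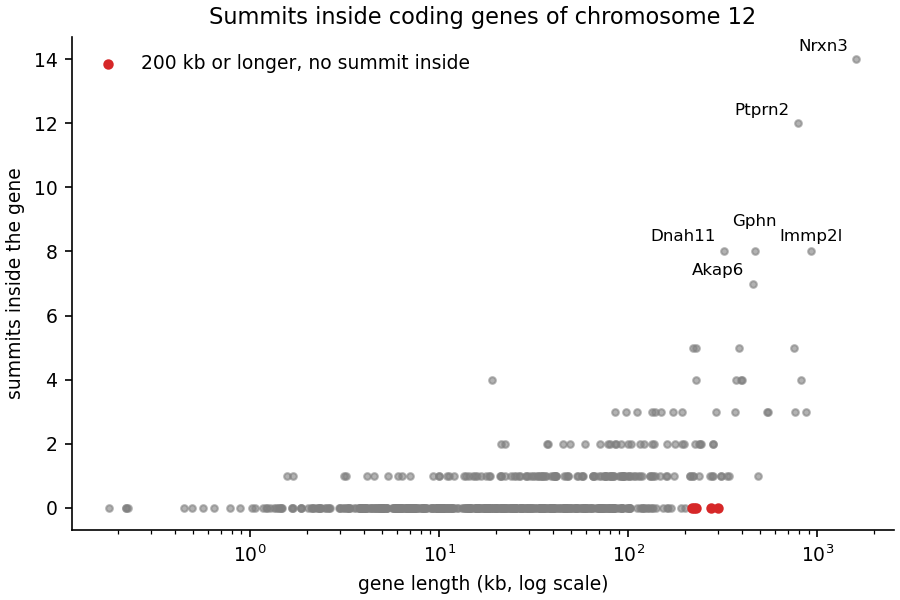
Number of summits inside each of the 678 coding genes of chromosome 12 (y axis) against gene length (x axis, kb, log scale), with the 5 genes of 200 kb or longer without a summit in red. The highest count is 14, in Nrxn3, and the point at 19 kb and 4 summits is Atp6v1d.

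Functional groups on the chromosome were described through 11 lists, of which 99 of 101 entries lie on it. Of the 99 genes, 4 had a gene-end peak (4.04%) and 28 more had a summit inside (32.3% with either). Over all 678 coding genes of the chromosome these shares were 4.87% and 27.7%, against which the counts of each list are to be set, and with 3 to 17 genes in a list they are descriptions only. Genes of neuronal adhesion and synapse had a summit inside in 10 of 12 cases, 0 at an end. Several of its members are very long, Nrxn3 and Mdga2 (763 kb) above all. Besides Nrxn3, Gphn and Akap6, these were Myt1l, a neuronal transcription factor gene, with 4, Mdga2 and Rgs6, a G protein regulator gene, with 3 each, Kcnh5 with 2, and Nrcam, Flrt2 and Lrfn5 with 1. The summit in Flrt2 itself was 3.50-fold with 12 tags. Lrrn3 and Stxbp6 had none.

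Chaperone and endoplasmic reticulum quality control genes had a gene-end peak at 3 of 9 genes, where 4.87% of all coding genes of the chromosome had one. These were Hsp90aa1, Dnajb9, which encodes an endoplasmic reticulum cochaperone (3.56-fold, 9 tags, −log10 q 1.08), and Hspa2, an HSP70 gene of the testis (3.50-fold, 11 tags, −log10 q 1.31, 22 bp from its far end). Dnajc27 had a summit inside at 3.59-fold. Pdia6, Sel1l, which acts in degradation of misfolded proteins, and Ahsa1, an HSP90 cochaperone gene, had none, and their nearest summits were 472, 14.4 and 17.7 kb from an end. Of the 4 list genes with a gene-end peak, 3 are thus from this list, and the fourth is the RNA processing gene Gemin2 (3.03-fold, 8 tags, −log10 q 0.76). Earlier results on these data had already shown Hsp90aa1 and Dnajb9 with such peaks, so this count is no independent evidence.

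Nuclear receptor genes and their partners had a summit inside in 4 of 7 cases and 0 at an end, where 27.7% of all coding genes had a summit inside or at an end. The orphan receptor gene Esrrb had a peak of 3.83-fold with 13 tags, and the estrogen receptor gene Esr2 one of 3.77-fold with 12 tags. Snw1, which encodes a transcription coregulator of nuclear receptors, held 2 summits, up to 3.88-fold, and the corepressor gene Rcor1 1 of 2.96-fold with a q above 0.05 (−log10 q 0.76). Ncoa1, the hypoxia factor gene Hif1a and the aryl hydrocarbon receptor gene Ahr had none, with summits 48.3, 114 and 27.2 kb from an end.

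Among inflammation and innate immunity genes 1 of 14 (7.14%) had a summit inside and 0 at an end, where 27.7% of all coding genes had either. It was Traf3, an adaptor gene of TNF receptor and interferon signalling, with an inside peak of 3.70-fold and 11 tags. Traf3 is also the longest gene of the list, where Lgmn and Serpina3n, for example, span 45.6 and 7.69 kb. Gene length was not accounted for in the shares of this or the other lists. Tnfaip2, Lgmn, a lysosomal protease gene, and Serpina3n, an acute-phase inhibitor gene, had none inside or within 1000 bp of an end, and their nearest summits were 39.3, 8.68 and 1.59 kb from an end. Immediate early and AP-1 genes had 1 of 8, Jdp2, with 3.27-fold and 11 tags. The Fos gene was 10.5 kb from a summit of 4.46-fold, Batf 53.0 kb and Id2 12.7 kb from theirs.

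Developmental transcription factor genes had a summit inside in 2 of 17 cases (11.8%, against 27.7% of all coding genes with one inside or at an end), Npas3 with 4 and Bcl11b with 1. Nkx2-1 and Twist1 had none, with summits 304 and 28.8 kb from an end. They span 4.97 and 2.16 kb, against 824 kb for Npas3. In the chromatin list 3 of 7 genes (42.9%) had a summit inside. Hdac9 held 3, up to 5.70-fold, Baz1a held 2, and the DNA methyltransferase gene Dnmt3a 1 of 3.59-fold. In the RNA processing list Papola, a poly(A) polymerase gene, had a summit inside at 4.25-fold in addition to the end peak of Gemin2, and Srsf5, Ddx24 and Dicer1 had none. Among 8 genes of cell cycle, replication and repair, 3 (37.5%) had a summit inside. Rad51b, a recombination gene, held 3, up to 5.26-fold with 14 tags, and Fancm, a Fanconi anaemia helicase gene, 1 of 3.87-fold. Of 3 proteasome genes, Psma3 had a summit of 2.72-fold with 7 tags and a q above 0.05 (−log10 q 0.54).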

How the data were processed

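DNA from BV2 cells was sequenced after precipitation with anti-Nr4a2 and as input, 1 library each. Per the submitters' processing notes, Bowtie2, MACS2 2.2.6 and ChIPseeker and build mm10 were used, while per the file headers MACS 2.1.4 called peaks on the ChIP against the input at a p-value cutoff of 0.001, a fragment length of 164 bp and 1 tag kept per position. After this, 20365794 ChIP and 22520884 input tags remained, per the file headers. The deposited pileup is a coverage signal at the summit. The deposited p and q values are −log10 values, and q values are present although the header says that they would not be calculated. The deposited fold is a ratio of pileup to local background, each plus 1. Positions and widths are in bp, 1-based.

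Genes were taken from RefSeq on GRCm38.p6, the assembly of mm10. On chromosome 12, 16 records that carry scaffold coordinates (1 of them coding) were left out, since they would start the span before the first placed gene, and 348 on all chromosomes. Bins with at least 25% of their length in the span were used, and a gene belongs to the bin of its midpoint. Blocks came from optimal partitioning of Poisson counts in 1 Mb bins, with a cost of 3 times the natural log of the number of bins per step and at least 3 bins per block. The block finder was tried only on simulated Poisson counts, so how often it errs on the counts of this chromosome is not known. A background below 1.79 was taken as the genome-wide minimum. Shares carry exact Clopper-Pearson intervals, densities exact Poisson intervals and medians order-statistic intervals. Where 0 were seen, 3 counts of the total give the upper limit.

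The members, lists and rules were chosen with earlier results of these data known. Named were the 10 peaks of highest fold, the 15 gene-end entries of highest fold, the 10 genes with most summits, genes at block borders, the 5 longest genes without a summit, and list members with a peak plus up to 3 without. A few genes that this rule names are not reported here. Work was done in Python 3.11.15 with scipy 1.17.1.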

Additional observations from a re-analysis of the deposited data

How the results depend on the processing

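Under the limits of q 0.05, q 0.001 and 5-fold, chromosome 12 had 3.17, 0.171 and 0.239 peaks per Mb. Its share of placed peaks was 10.9% under q 0.001 and 9.72% under 5-fold, and its rank by density was 2, 1 and 1 at these 3 limits. With all records other than pseudogenes there were 13.7 genes per Mb. The number of blocks was 7 with 50% of the penalty and 3 under each of the other alternatives run, with borders at 23 and 72 Mb under q 0.05. The rank correlation with position, whose alternatives were added after seeing the data, was 0.681 in 1 Mb bins, 0.264 for peaks on the minimum background, 0.355 under q 0.001 and 0.310 under 5-fold, the last 2 over only 20 and 28 peaks. That with coding genes ranged from 0.302 to 0.441. The share of summits at gene ends was 2.46% within 500 bp and 8.54% within 3000 bp, and 0 of 20 peaks under q 0.001 and 0 of 28 under 5-fold, which allow shares of up to 15% and 10.7%. Genes with an end peak numbered 18 within 500 bp, 68 within 3000 bp, 14 under q 0.05 and 0 at both stricter limits. The share inside genes was 35.0% and 35.7% at the stricter limits, with intervals that include 43.1%. The median fold was 3.56 for peaks above the minimum background. The stricter limits leave fewer peaks by construction, and no other cause was tested. No paired analysis was possible because there was 1 library of each kind.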
